A study of Danio rerio with 6 samples.

Results

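The genes described here encode aminoacyl-tRNA synthetases, which charge tRNAs with amino acids, and tRNA methyltransferases of the trmt name family, measured in the zebrafish larval fin fold. They were chosen by name. A gene was taken when its name in the deposited count table was a letter followed by ars (with or without a digit), began with eprs or trmt, or was farsa or farsb, and when it had at least 15 counts over the 6 libraries. Of 32266 genes in the table, 49 met the rule. They are 33 synthetase genes and 16 trmt genes. The trmt genes are called methyltransferase genes here, though trmt6 and trmt112 encode a partner and an activator of methyltransferases. No gene of a matching name fell below the count minimum, and the lowest total was that of trmt12, with 223 counts.

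RNA was sequenced from fin folds of 3-day-old zebrafish larvae, 4 h after amputation of the fold or left uncut, with 3 libraries in each group. The fin fold is the thin sheet of skin around the larval tail. The labels name no strain, allele or drug for either group, although the sample descriptions of all libraries carry the word DMSO, a solvent. They do not say how many larvae went into a library or whether replicates came from separate clutches, so the p-values reflect how far these libraries differ from one another, and part of that spread may be technical.

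Each synthetase joins its own amino acid to the matching tRNA, and translation stops at a codon whose tRNA is not charged. Animal cells use largely separate synthetases in the cytosol and in mitochondria, with the mitochondrial enzymes encoded in the nucleus and marked in most gene names by a final 2. In mammals several cytosolic synthetases are bound in a multi-synthetase complex together with scaffold proteins. The methyltransferases modify tRNA bases or riboses after transcription, which affects how a tRNA folds, how stable it is and how it reads codons.

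Total counts were 18595152 to 21128093 in the amputated libraries and 11216130 to 23019556 in the uncut libraries. Within a group, pairs of libraries were further apart than counting noise (chi-square over its degrees of freedom, 4.68 to 16.8), and all 6 were kept. In a principal component plot amputated and uncut folds separated along the first axis (66.8% of the variance), and uncut replicate 1 stood apart along the second (13.7%). Levels are given as CPM, counts scaled to a common library size after TMM correction, and are not corrected for transcript length, so levels are compared between samples and not between genes. Differences are log2 fold changes, amputated over uncut, with their standard error (SE). Genes with an adjusted p (Benjamini-Hochberg) under 0.05 in edgeR's quasi-likelihood test, out of 17883 tested, are said to be called.

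Most synthetase and tRNA methyltransferase genes were higher 4 h after amputation. All 49 were tested. Of these 36 were called higher, 1 was called lower and 12 were not called, where 20.8% of all tested genes were called higher and 19.6% lower, or 40.4% in either direction. The median log2 fold change of the 49 was 0.74, and that of all tested genes was 0.003. In 39 of the 49 genes every amputated library lay above every uncut library, against 26.9% of all tested genes, and in 1 gene every amputated library lay below, against 24.1%. The log2 fold change was positive in 48 of the 49 genes, and the exception was dars, the aspartyl-tRNA synthetase gene. The sizes were moderate, from −0.28 to 1.39, and 8 of the 49 were called higher with at least 1 on the log2 scale, where 4.53% of all tested genes were.

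**Figure D1:**
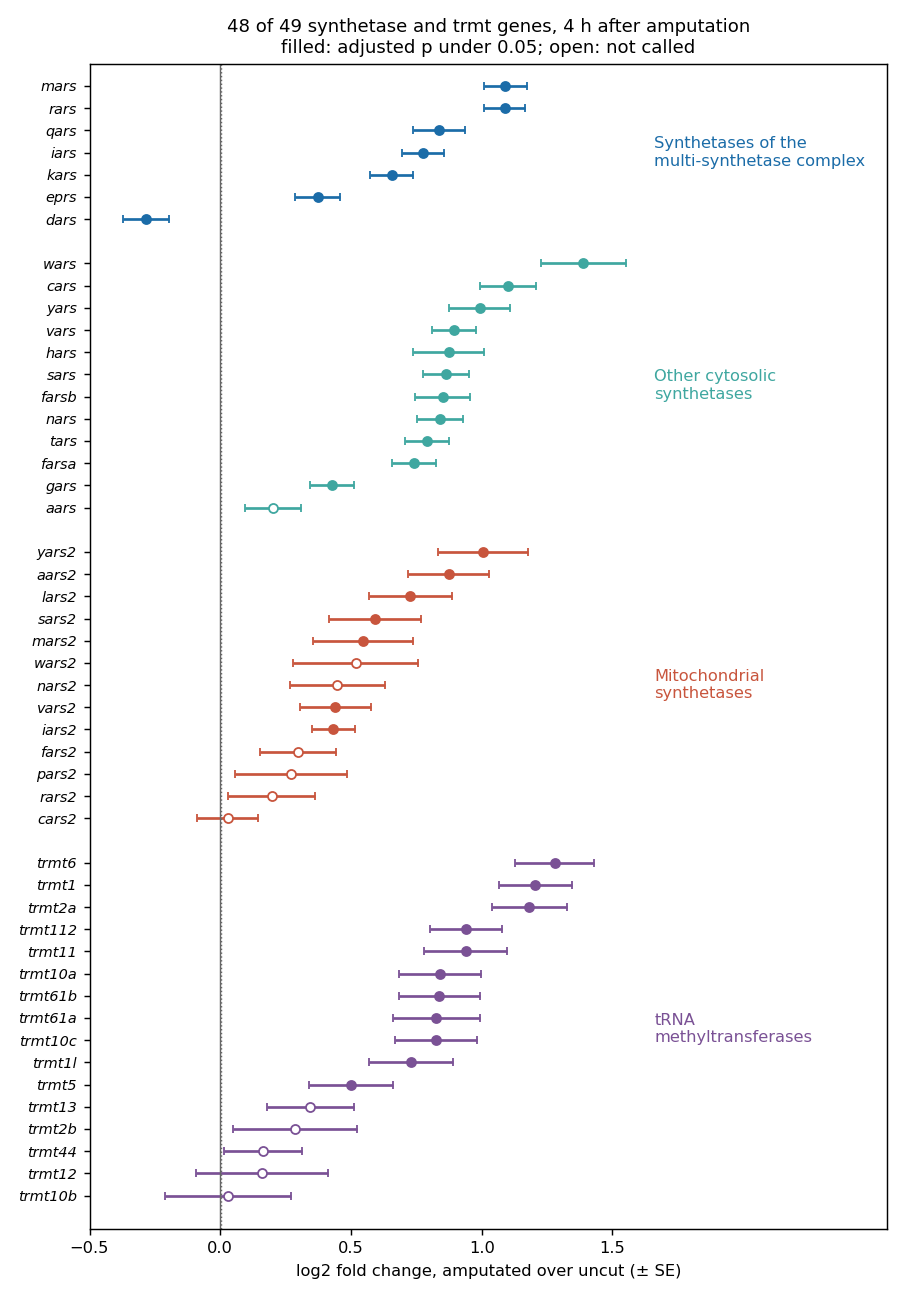
Log2 fold change, amputated over uncut, of 48 of the 49 genes (points, with SE as bars) in 4 role groups; filled points were called at an adjusted p under 0.05, open points were not, and the dotted line is the median of all tested genes. All points but dars (−0.28) lie above 0, and the 12 open points include 6 mitochondrial synthetases and 5 methyltransferases.

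With scaling by library totals and no TMM correction, the median of all tested genes was 0.26 and that of the 49 genes 1.00, so the values given here are changes against the middle of the tested genes, which TMM places near 0. With that scaling 43 of the 49 genes were called higher, where 38.1% of all tested genes were. In the authors' deposited table, 36 of the 49 genes were called higher and 1 lower at the same threshold, and the 36 were the same genes. Since these are whole-tissue libraries, a change in the share of a cell type and a change in RNA per cell cannot be told apart.

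Synthetases that belong to the multi-synthetase complex in mammals were represented by 7 genes, of which 6 were called higher and 1 lower. These are 85.7% and 14.3%, where 20.8% and 19.6% of all tested genes were called higher and lower. The arginyl-tRNA synthetase gene rars (chromosome 21, 35292838 to 35343831) had 70.1, 69.1 and 68.9 CPM in amputated replicates 1, 2 and 3, against 32.2, 33.9 and 31.6 CPM in uncut replicates 1, 2 and 3. The amputated libraries lay far above the uncut ones with little spread within either group, a log2 fold change of 1.09 ± 0.08 (SE; edgeR adjusted p = 1.5e-06). The methionyl-tRNA synthetase gene mars, whose product also charges the initiator tRNA, had 90.4, 88.4 and 81.9 CPM in amputated folds and 42.0, 41.8 and 38.3 CPM in uncut folds. Its log2 fold change was 1.09 ± 0.08 (edgeR adjusted p = 2.1e-06), but its gene model overlaps that of fam210b.

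The glutaminyl gene qars was also clearly parted between groups, at 93.0, 87.3 and 83.4 CPM in amputated folds and 43.4, 56.0 and 47.9 CPM in uncut folds (log2 fold change 0.84 ± 0.10, edgeR adjusted p = 4.5e-05). The isoleucyl gene iars had 138, 133 and 133 CPM in amputated folds and 83.9, 78.9 and 73.0 CPM in uncut folds. Its groups did not overlap either (0.78 ± 0.08, edgeR adjusted p = 1.6e-05). The lysyl gene kars, which in mammals serves both cytosol and mitochondria, averaged 227 ± 12.8 CPM in amputated folds and 144 ± 9.52 CPM in uncut folds (SD, n = 3 each), with a log2 fold change of 0.66 ± 0.08.

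A smaller rise was seen in eprs, which encodes a fused enzyme for glutamate and proline. It had 266, 278 and 250.1 CPM in amputated folds and 209.9, 218 and 185 CPM in uncut folds. The groups did not overlap, and the log2 fold change was 0.37 ± 0.09 (edgeR adjusted p = 0.00421).

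In contrast dars (chromosome 9, 10727885 to 10788795) had 126, 121 and 116 CPM in amputated folds and 164, 139.7 and 138 CPM in uncut folds. All amputated libraries lay below all uncut ones, and the gene fell by 0.28 ± 0.09 on the log2 scale (edgeR adjusted p = 0.0216). The call did not hold when amputated replicate 2 (adjusted p = 0.0655), amputated replicate 3 (0.0833) or uncut replicate 1 (0.0543) was left out of the edgeR fit, and with library totals alone the log2 fold change was −0.02 (adjusted p = 0.826). Ratios within a library do not depend on how libraries are scaled. The ratio of dars to kars counts was 0.524, 0.562 and 0.515 in amputated folds and 1.07, 0.978 and 1.02 in uncut folds. That of dars to rars was 1.80, 1.75 and 1.68 in amputated folds and 5.09, 4.13 and 4.35 in uncut folds. Neither ratio overlapped between groups. Both denominators were called higher, so the ratios hold their rise as well and give no separate support for a fall of dars.

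Among the 12 other cytosolic synthetase genes, 11 were called higher (91.7%, where 20.8% of all tested genes were) and 1, aars, was not called. Their median log2 fold change was 0.86. The valyl gene vars had 112, 114 and 109 CPM in amputated folds and 59.8, 65.0 and 54.8 CPM in uncut folds, and rose by 0.89 ± 0.08 (edgeR adjusted p = 7.9e-06). The cysteinyl gene cars had 59.4, 56.1 and 45.1 CPM in amputated folds and 25.04, 25.5 and 24.2 CPM in uncut folds. The spread was wider after amputation than in uncut folds, but the groups stayed well apart (1.0998 ± 0.11, edgeR adjusted p = 1.2e-05).

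Seryl and asparaginyl genes moved by similar amounts. The seryl gene sars had 145, 146 and 131 CPM in amputated folds and 82.6, 78.7 and 70.5 CPM in uncut folds (0.86 ± 0.09, edgeR adjusted p = 1.3e-05). For the asparaginyl gene nars the levels were 156, 159.5 and 142 CPM in amputated folds and 84.5, 92.2 and 78.0 CPM in uncut folds (0.84 ± 0.09, edgeR adjusted p = 1.7e-05). The threonyl gene tars rose by 0.79 ± 0.08 and the tyrosyl gene yars by 0.99 ± 0.12. For tars the deposited table gives the human ortholog as TARSL2, while the reference gene names call it TARS1. The histidyl gene hars had 108, 101 and 93.4 CPM in amputated folds and 68.3, 53.2 and 43.1 CPM in uncut folds, the widest relative spread among uncut libraries in this group after wars, with a log2 fold change of 0.87 ± 0.13 (edgeR adjusted p = 2.9e-04). Its human ortholog in the deposited table is HARS, but the reference gene names call it HARS2, a name of the mitochondrial form. It was counted here among the cytosolic genes.

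The glycyl gene gars, which in mammals also serves mitochondria, had 191, 188 and 177 CPM in amputated folds and 145, 144 and 124 CPM in uncut folds. Its rise of 0.43 ± 0.08 (edgeR adjusted p = 0.00152) was below the median of its group. The alanyl gene aars had 168, 153 and 149 CPM in amputated folds and 160.2, 129 and 119.6 CPM in uncut folds, so the groups overlapped. Its log2 fold change was 0.20 ± 0.11 (edgeR adjusted p = 0.149, with a 95% interval from −0.03 to 0.43). In edgeR fits without uncut replicate 1 the log2 fold change was 0.34 (adjusted p = 0.00426). With the replicate number as a block it was 0.21 (edgeR adjusted p = 0.0299), and with library totals alone it was 0.46 (edgeR adjusted p = 0.00246). The call of aars thus turned on that library, on the design and on the scaling.

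The tryptophanyl gene wars had the largest log2 fold change of the 49, at 1.39 ± 0.16 (edgeR adjusted p = 3.9e-05). It had 13.9, 13.7 and 12.9 CPM in amputated folds and 6.19, 5.26 and 3.70 CPM in uncut folds. Its model in the table spans only chromosome 17, 1507534 to 1509311, and another short model, CABZ01109604.1 on an unplaced scaffold, has the same human ortholog in the table. That model had a log2 fold change of 1.39 ± 0.18. How reads were divided between the models is not known.

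Phenylalanyl-tRNA synthetase is made of alpha and beta subunits in the cytosol. The alpha subunit gene farsa had 79.1, 77.4 and 75.3 CPM in amputated folds and 49.5, 46.6 and 42.4 CPM in uncut folds. The beta subunit gene farsb had 46.8, 48.4 and 42.9 CPM in amputated folds and 26.8, 27.7 and 21.5 CPM in uncut folds. Both rose, by 0.74 ± 0.08 and 0.85 ± 0.11 (edgeR adjusted p = 3.1e-05 and 6.0e-05). The ratio of farsa to farsb counts was 1.68 ± 0.077 in amputated folds and 1.83 ± 0.147 in uncut folds (SD, n = 3 each), and the groups overlapped (exact two-sided permutation p = 0.3).

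**Figure D2:**
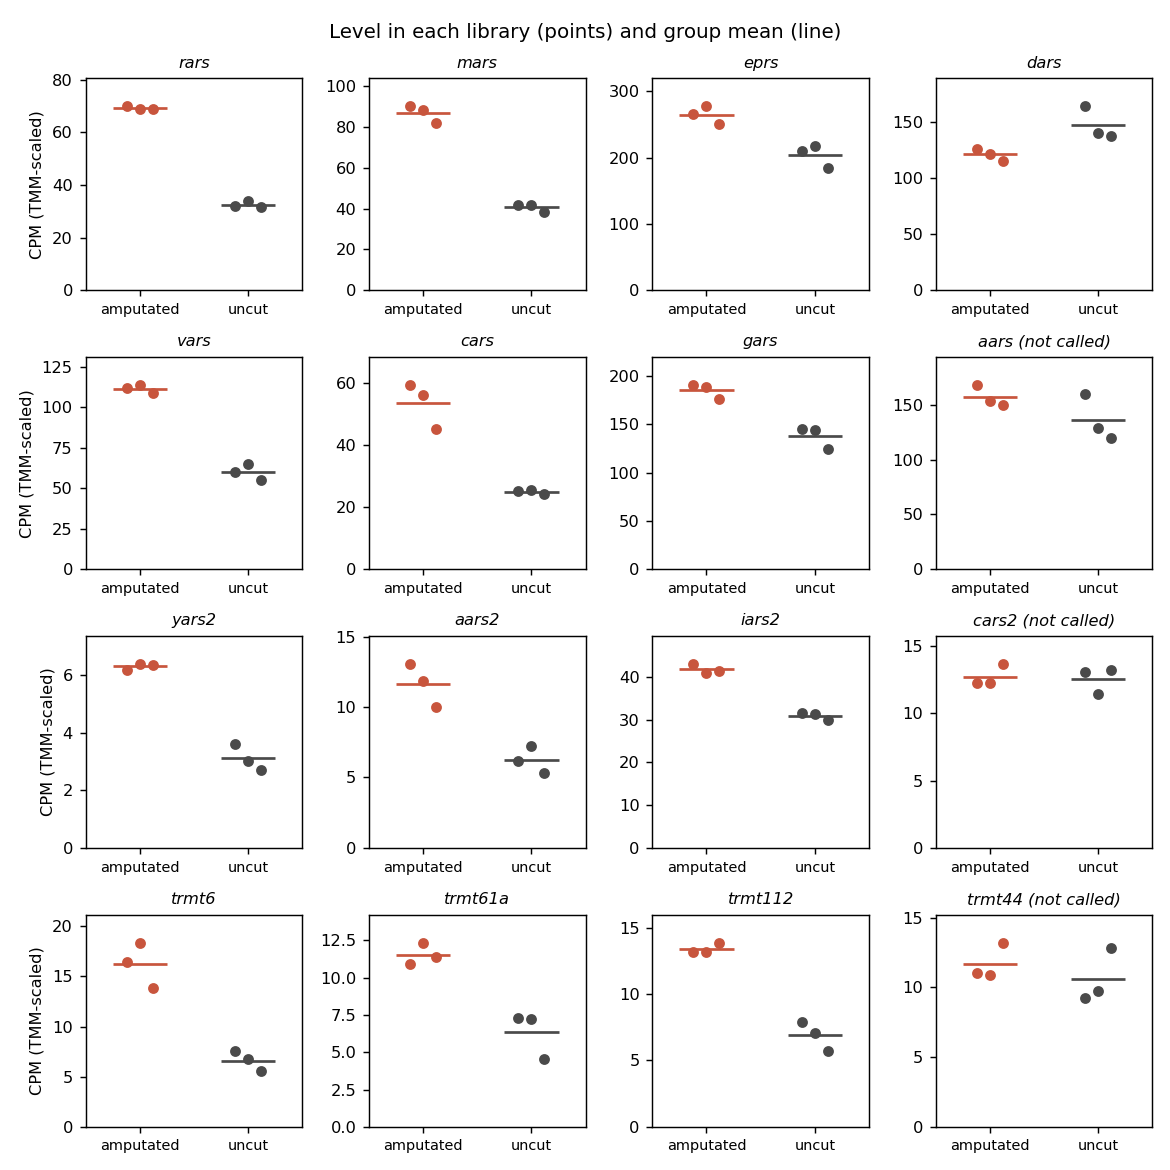
CPM after TMM scaling in each of the 3 amputated and 3 uncut libraries (points) with the group mean (line) for 16 of the 49 genes; every axis starts at 0. The groups part in rars and mars, come closer in eprs and gars, are turned round in dars, and overlap in aars, cars2 and trmt44.

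Mitochondrial synthetases held more genes that missed the threshold. Of 14 genes, 8 were called higher (57.1%, where 20.8% of all tested genes were) and 6 were not called. Their median log2 fold change was 0.48. All 14 were above 0 in the edgeR fit. In 10 of the 14 every amputated library lay above every uncut library, against 26.9% of all tested genes. Most were at low levels, with total counts over the 6 libraries from 275 for wars2 to 4123 for iars2, and their SE ran from 0.08 to 0.24, against 0.08 to 0.16 for the 19 cytosolic genes.

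The tyrosyl gene yars2 (chromosome 25, 2172621 to 2185896) had 6.19, 6.39 and 6.37 CPM in amputated folds and 3.62, 3.02 and 2.72 CPM in uncut folds. Its log2 fold change of 1.01 ± 0.17 (edgeR adjusted p = 5.8e-04) was the largest of the mitochondrial genes. The alanyl gene aars2 had 13.1, 11.9 and 10.03 CPM in amputated folds and 6.19, 7.21 and 5.35 CPM in uncut folds (0.87 ± 0.15, edgeR adjusted p = 7.8e-04). The leucyl gene lars2 also rose, by 0.73 ± 0.16 (edgeR adjusted p = 0.00326), with 7.38, 7.88 and 7.46 CPM in amputated folds and 4.22, 4.19 and 5.54 CPM in uncut folds.

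The isoleucyl gene iars2 had 43.0, 40.9 and 41.3 CPM in amputated folds and 31.4, 31.3 and 29.95 CPM in uncut folds. Its rise was small but tightly measured, at 0.43 ± 0.08 (edgeR adjusted p = 0.00117), and its model overlaps that of rab3gap2. At the other end stood the cysteinyl gene cars2, at 12.3, 12.3 and 13.7 CPM in amputated folds and 13.0, 11.4 and 13.2 CPM in uncut folds. The groups overlapped, with a log2 fold change of 0.03 ± 0.12 and a 95% interval from −0.23 to 0.29 (edgeR adjusted p = 0.873). The other genes not called were nars2, fars2, pars2, rars2 and wars2, at log2 fold changes of 0.45, 0.30, 0.27, 0.20 and 0.52. In nars2 and fars2 the amputated libraries all lay above the uncut ones, and in the other 3 the groups overlapped. The model of fars2 overlaps a gene named LYRM4 in the table, and that of rars2 overlaps slc35a1. The model of cars2 overlaps irs2a, which had 4546 counts over the 6 libraries against 1397 for cars2. That of mars2, with 392 counts, overlaps med12, with 14425. Single libraries moved some of these values, with pars2 at 0.07 without uncut replicate 2 and 0.47 without uncut replicate 1, and rars2 between 0.08 without amputated replicate 3 and 0.30 without uncut replicate 2.

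Several of these calls rested on few libraries, and the count of 8 became 5 without uncut replicate 2 and 4 without uncut replicate 3. The call of mars2 (0.55 ± 0.19) was lost when any library other than uncut replicate 1 was left out (edgeR adjusted p = 0.0578 to 0.131). That of vars2 (0.44 ± 0.14) was lost without amputated replicate 3 (0.0771), uncut replicate 2 (0.1) or uncut replicate 3 (0.055). That of sars2 (0.59 ± 0.18) was lost without amputated replicate 2 (0.053) or uncut replicate 3 (0.063). The model of sars2, with 487 counts, overlaps si:dkey-260j18.2, with 3116. In the other direction wars2 (0.52 ± 0.24) was called without amputated replicate 3 (0.0459). DESeq2's Wald test called 5 of the 14 genes, leaving out mars2, sars2 and vars2.

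Cytosolic and mitochondrial synthetase genes among the 49 were set side by side for 11 amino acids, taking farsa for phenylalanine. In 9 of these pairs the cytosolic gene had the larger log2 fold change, and in 2, those for alanine and tyrosine, the mitochondrial gene did. The models of cars2, iars2, mars2, rars2, sars2 and fars2, and that of mars, overlap other expressed models and could share reads with them. All of these are in pairs where the cytosolic gene had the larger change. Among pairs without an overlap, the cytosolic change was larger for asparagine, valine and tryptophan, and the mitochondrial for alanine and tyrosine. The cysteine pair was the widest apart. The ratio of cars to cars2 counts was 4.84, 4.57 and 3.29 in amputated folds and 1.92, 2.23 and 1.83 in uncut folds. The alanine ratio, aars to aars2, ran the other way, at 12.9, 12.9 and 14.9 in amputated folds and 25.9, 17.9 and 22.4 in uncut folds. Neither of these ratios overlapped between groups (exact two-sided permutation p = 0.1 each, the smallest value 3 against 3 libraries allow, and 0.123 after Benjamini-Hochberg adjustment over the 16 ratios computed). The tyrosine ratio overlapped, at 10.8 ± 1.06 in amputated folds and 10.8 ± 0.784 in uncut folds (SD, n = 3 each; exact permutation p = 0.9).

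**Figure D3:**
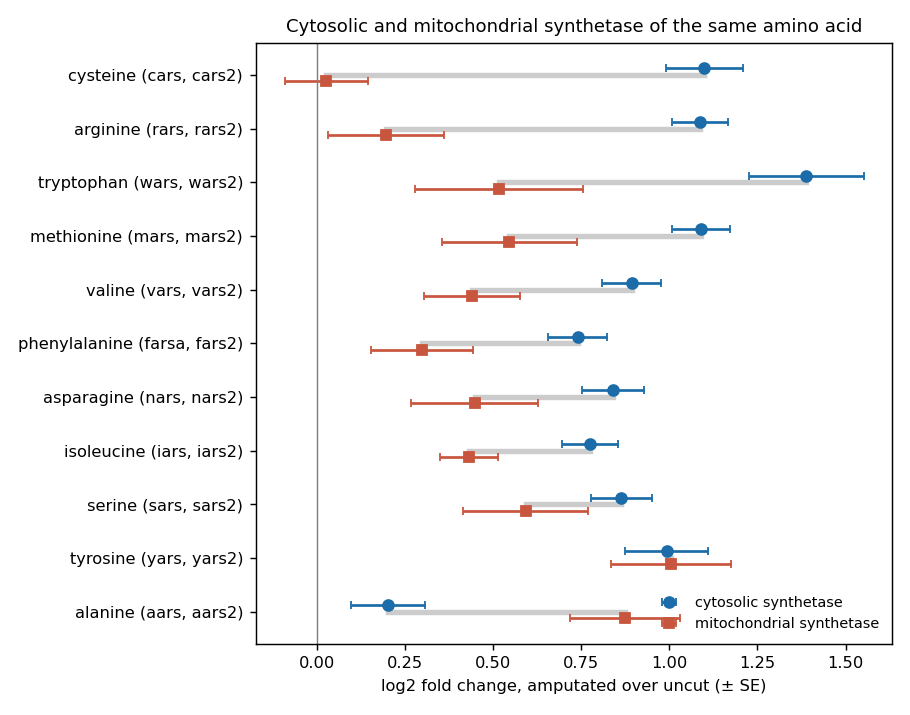
Log2 fold change, amputated over uncut, of the cytosolic (circles) and mitochondrial (squares) synthetase gene for each of 11 amino acids, with SE as bars, ordered by the gap between them. The cytosolic gene lies further right for 9 amino acids, tyrosine is level, and alanine is turned round. The models of cars2, iars2, mars2, rars2, sars2, fars2 and mars overlap other expressed models.

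Summed over all 19 cytosolic genes, synthetase counts took 0.247%, 0.251% and 0.229% of amputated libraries and 0.138%, 0.139% and 0.121% of uncut libraries. The 14 mitochondrial genes took 0.0146%, 0.0147% and 0.0148% of amputated libraries and 0.00907%, 0.00901% and 0.00877% of uncut libraries. The cytosolic sum over the mitochondrial sum was 17.0, 17.0 and 15.5 in amputated folds and 15.2, 15.4 and 13.8 in uncut folds. The shares given here are of raw library totals, without TMM correction. After TMM scaling the cytosolic sums were 2306, 2240 and 2113 CPM in amputated folds and 1547, 1489 and 1323 CPM in uncut folds. The mitochondrial sums were 136, 132 and 136 CPM in amputated folds and 102, 96.5 and 95.7 CPM in uncut folds. On both scales both sums were higher in every amputated library than in any uncut one. The ratio of the sums parted the groups only narrowly, since uncut replicate 2 and amputated replicate 3 lay close together.

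The tRNA methyltransferase genes numbered 16, of which 11 were called higher (68.8%, where 20.8% of all tested genes were) and 5 were not called. Their median log2 fold change was 0.83. All 16 were above 0 in the edgeR fit. The roles given here are known from yeast and mammals. The gene trmt1, whose enzyme dimethylates a guanosine in the core of the tRNA, had 19.5, 24.3 and 17.7 CPM in amputated folds and 8.04, 9.21 and 9.43 CPM in uncut folds. It rose by 1.21 ± 0.14 (edgeR adjusted p = 3.9e-05), and its model overlaps that of man2b1. The gene trmt2a, whose enzyme methylates a uridine in the T loop, had 14.9, 14.3 and 13.7 CPM in amputated folds and 5.60, 5.82 and 7.78 CPM in uncut folds. Its groups were well apart (1.18 ± 0.14, edgeR adjusted p = 5.2e-05). The mitochondrial counterpart trmt2b was at 0.29 ± 0.24 and was not called.

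Enzymes made of a catalytic and a partner subunit could be followed on both sides. The complex of trmt61a and its non-catalytic partner trmt6 methylates an adenosine in the T loop, also in the initiator tRNA. The partner gene trmt6 (chromosome 20, 45850603 to 45868586) had 16.4, 18.4 and 13.9 CPM in amputated folds and 7.51, 6.75 and 5.54 CPM in uncut folds. The catalytic gene trmt61a had 10.9, 12.4 and 11.4 CPM in amputated folds and 7.31, 7.21 and 4.57 CPM in uncut folds. Both rose, trmt6 by 1.28 ± 0.15 (edgeR adjusted p = 4.2e-05) and trmt61a by 0.83 ± 0.17 (edgeR adjusted p = 0.00174). The model of trmt61a overlaps that of ckba. The ratio of trmt6 to trmt61a counts was 1.505, 1.49 and 1.22 in amputated folds and 1.03, 0.935 and 1.21 in uncut folds. The groups were barely parted, since amputated replicate 3 and uncut replicate 3 nearly met (exact two-sided permutation p = 0.1, the smallest possible).

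The protein encoded by trmt112 activates several methyltransferases, that of trmt11 among them, which methylates a guanosine in the tRNA. The gene trmt112 had 13.2, 13.1 and 13.9 CPM in amputated folds and 7.91, 7.07 and 5.74 CPM in uncut folds (0.94 ± 0.14, edgeR adjusted p = 1.9e-04). For trmt11 the levels were 7.97, 8.27 and 7.33 CPM in amputated folds and 4.74, 3.81 and 3.70 CPM in uncut folds (0.94 ± 0.16, edgeR adjusted p = 6.0e-04). The partners moved by the same amount, and their ratio, trmt11 over trmt112, was 0.588 ± 0.053 in amputated folds and 0.595 ± 0.053 in uncut folds (SD, n = 3 each; exact permutation p = 0.8).

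Of the genes for mitochondrial tRNA methylation, trmt61b rose by 0.84 ± 0.16 and trmt10c, whose protein is also a subunit of mitochondrial RNase P, by 0.83 ± 0.16. The model of trmt10c overlaps cul4a. The gene trmt1l, a relative of trmt1, rose by 0.73 ± 0.16, and its model overlaps swt1. The cytosolic relative trmt10a rose by 0.84 ± 0.16, while trmt10b was at 0.03 ± 0.24 with a 95% interval from −0.49 to 0.55. The gene trmt5, whose enzyme methylates the guanosine next to the anticodon, was called at 0.50 ± 0.16 (edgeR adjusted p = 0.0267). That call was lost without amputated replicate 2 (0.110), uncut replicate 2 (0.135) or uncut replicate 3 (0.0723).

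Not called were trmt10b, trmt12, trmt13, trmt2b and trmt44. Of these only trmt13, at 0.34 ± 0.17, had every amputated library above every uncut one, and its model overlaps lrrc39. The gene trmt44, whose enzyme methylates a ribose of serine tRNAs, had 11.04, 10.9 and 13.2 CPM in amputated folds and 9.22, 9.72 and 12.8 CPM in uncut folds. Its groups overlapped, with a log2 fold change of 0.16 ± 0.15 (edgeR adjusted p = 0.414, 95% interval −0.16 to 0.49). The gene trmt12, which acts in the synthesis of wybutosine, a modified base of phenylalanine tRNA, had 47, 32 and 56 counts in amputated folds and 30, 38 and 20 counts in uncut folds, so its 95% interval was wide, from −0.39 to 0.71.

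Gene models that overlap in the table could share reads, since the library kit does not mark strand and the counter is not stated. Of the 49 members, 14 overlap another model with at least 15 counts. Among the other 35 members, 26 were called higher (74.3%) and 1 lower, with a median log2 fold change of 0.79. Among the 14 with an overlap, 10 were called higher (71.4%) and none lower, with a median of 0.59. Of all tested genes 20.8% were called higher.

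Some genes of the same families stand outside the rule because the table gives them other names. The cytosolic leucyl-tRNA synthetase, part of the complex in mammals, is named larsb and larsa in the table. The gene larsb had 79.3, 75.6 and 73.8 CPM in amputated folds and 32.2, 34.4 and 28.4 CPM in uncut folds (1.26 ± 0.09, edgeR adjusted p = 1.4e-06). The larger of the models named larsa, on chromosome 3, rose by 1.34 ± 0.16, and the other, on chromosome 9, had too few counts for a useful estimate (0.89 ± 0.55). A model whose human ortholog in the table is TARS2, CABZ01067060.1, rose by 0.65 ± 0.11. The mitochondrial glutamyl gene EARS2 was at 0.49 ± 0.19 (edgeR adjusted p = 0.064) and the threonyl-type gene tarsl2 at 0.09 ± 0.18 (0.733), neither called.

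Other steps of the tRNA pathway, and the amino acid response and supply, were followed with 5 lists of genes. Of the genes named for these lists, 7 were not found in the deposited count table and enter no count. The counts in these lists stand beside 20.8% of all tested genes called higher and 19.6% called lower. Of 13 genes listed as scaffold, partner and editing proteins of synthetases, 8 were called higher and none lower, with a median of 0.51. The 13 include the threonyl-type synthetase gene tarsl2 given above, and the selenocysteine pathway genes sepsecs and secisbp2. The largest among the named genes was ptrh2, a peptidyl-tRNA hydrolase gene, at 1.06 ± 0.15 (edgeR adjusted p = 1.8e-04). The gene qrsl1, part of the mitochondrial amidotransferase that makes glutaminyl-tRNA, rose by 1.04 ± 0.18, and dtd1, a deacylase gene that removes D-amino acids from tRNA, by 0.70 ± 0.11. The scaffold gene aimp2 of the multi-synthetase complex did not pass the test. It had 69.8, 58.9 and 60.4 CPM in amputated folds and 69.8, 62.2 and 63.4 CPM in uncut folds, a log2 fold change of −0.05 ± 0.09 with a 95% interval from −0.25 to 0.15. Another complex partner, eef1e1, rose by 0.59 ± 0.16 (edgeR adjusted p = 0.0103).

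Of 55 other tRNA modification enzymes, 40 were called higher and none lower, with a median log2 fold change of 0.65. The acetyltransferase gene nat10, which acts on both tRNA and ribosomal RNA, had 67.1, 67.4 and 64.2 CPM in amputated folds and 32.1, 32.9 and 27.0 CPM in uncut folds. It rose by 1.103 ± 0.09 (edgeR adjusted p = 3.6e-06). The cytosine methyltransferase gene nsun2 rose by 0.93 ± 0.09 and the Elongator subunit gene elp2 by 1.04 ± 0.12. Of 28 genes of tRNA processing and export, 18 were called higher and none lower, with a median of 0.58. In these 3 lists no gene was lower at an unadjusted p under 0.05 in edgeR either, and DESeq2 called 0 lower. The gene ssb, whose La protein binds new RNA polymerase III transcripts, had 105, 127 and 107 CPM in amputated folds and 47.0, 43.9 and 36.5 CPM in uncut folds (1.41 ± 0.11, edgeR adjusted p = 2.4e-06). The RNase P subunit gene pop4 rose by 0.95 ± 0.13 and the exportin gene XPO5 by 1.01 ± 0.14.

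Elongation and release factors were called higher more often than lower. Of 20 tested, 9 were called higher (45%), 1 lower (5%) and 10 were not called, with a median of 0.31. The shares of all tested genes were 20.8% higher and 19.6% lower. The ribosome recycling gene abce1 rose by 1.21 ± 0.09, the release factor gene etf1b by 1.07 ± 0.08 and eif5a2 by 0.86 ± 0.08. The gene called lower was eef1da, a subunit of the exchange factor of elongation factor 1, at −0.50 ± 0.09.

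Genes of the amino acid response and of amino acid supply were split, with 7 of 39 called higher (17.9%), 14 lower (35.9%) and a median of −0.15. The share called higher was near the 20.8% of all tested genes, and 19.6% of all tested genes were called lower. In mammals the transcription factor ATF4 activates many cytosolic synthetase genes when amino acids are short. The zebrafish gene atf4a had 455, 382 and 409 CPM in amputated folds and 418, 379.7 and 383 CPM in uncut folds. The gene atf4b had 276, 269 and 229 CPM in amputated folds and 266, 235 and 206 CPM in uncut folds. Both groups of values overlapped, with log2 fold changes of 0.08 ± 0.09 (edgeR adjusted p = 0.514, 95% interval −0.11 to 0.27) and 0.13 ± 0.10 (0.357, 95% interval −0.10 to 0.36). With library totals alone both were called, at 0.33 and 0.39 (edgeR adjusted p = 0.00424 and 0.00826), against the general shift of 0.26 in that scaling. ATF4 protein was not measured, and its part in the synthetase results was not tested.

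The genes in that list that passed did not go one way. The mitochondrial folate enzyme gene mthfd1l had 44.7, 47.5 and 29.7 CPM in amputated folds and 10.9, 9.21 and 8.46 CPM in uncut folds (2.08 ± 0.17, edgeR adjusted p = 3.6e-06). The asparagine synthetase gene asns rose by 1.11 ± 0.11. In contrast chac1, a glutathione-degrading enzyme gene, fell by 0.76 ± 0.13, and a gene the table names NUPR2 (nupr1a in the reference gene table) fell by 1.24 ± 0.11. The kinase gene eif2ak3 fell by 1.20 ± 0.14. The stress genes ddit3 and trib3 were at −0.15 ± 0.10 and 0.09 ± 0.11 and were not called. Of 9 amino acid transporter genes in the list, 2 were called higher (slc7a11 and slc38a2, 22.2%) and 3 lower (33.3%), which for so few genes is near the shares of all tested genes.

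**Figure D4:**
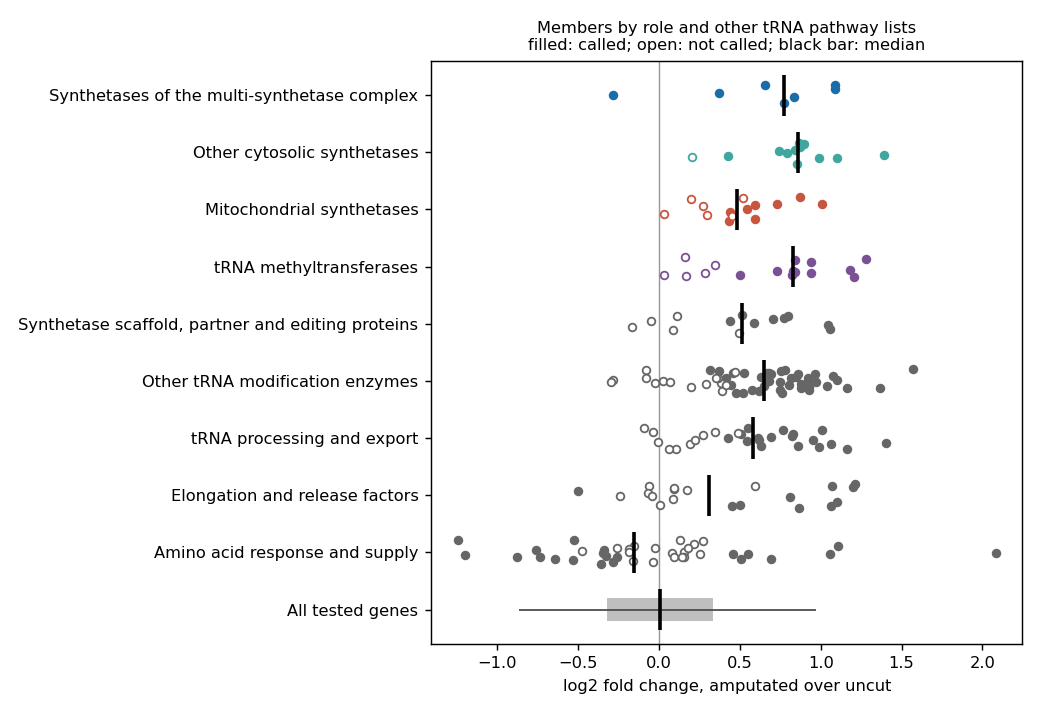
Log2 fold change, amputated over uncut, of each gene in the 4 role groups and in the 5 other lists (filled points called, open points not called, black bar the median), with the middle 50% (grey box) and 90% (line) of all tested genes in the last row. The medians of the 4 role groups lie from 0.48 to 0.86, that of amino acid response and supply genes at −0.15, and the box of all tested genes from −0.32 to 0.33.

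Markers of several, but not all, cell types that the fold could hold differed between groups. All 5 neutrophil, all 5 macrophage and all 4 pan-leukocyte markers were called higher. Their summed levels were 808 to 1240 CPM for neutrophil markers in amputated folds, against 51.3 to 55.9 CPM in uncut folds. For macrophage markers they were 63.3 to 67.2 CPM in amputated folds and 24.6 to 27.8 CPM in uncut folds, and for pan-leukocyte markers 46.3 to 52.1 CPM in amputated folds and 7.54 to 10.3 CPM in uncut folds. Of markers of the fold itself, 5 of 8 for epidermis and 5 of 6 for mesenchyme and actinotrichia (the collagen-like rods of the fold) were called lower. Among all tested genes 20.8% were called higher and 19.6% lower. Summed epidermis markers were at 39725 to 47826 CPM in amputated folds and 54994 to 70603 CPM in uncut folds. Summed mesenchyme and actinotrichia markers were at 28621 to 33360 CPM in amputated folds and 65856 to 68538 CPM in uncut folds. A large part of each of these sums came from its highest marker. Its mean over the 6 libraries was 38286 CPM for epidermis and 25514 CPM for mesenchyme and actinotrichia. Most of the neutrophil sum also came from its highest marker, with a mean of 517 CPM over the 6 libraries. The neutrophil sum therefore mostly follows that marker. Of 5 tested muscle markers, 3 were called lower. Of 3 tested blood, 4 neuron and 3 notochord markers edgeR called 0, none at an unadjusted p under 0.05, with median log2 fold changes of −0.07, 0.01 and −0.11, and DESeq2 called 0 lower. No marker was at 0 in all libraries. The part of these shifts in the synthetase and methyltransferase results was not tested.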

How the data were processed

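RNA was sequenced from 3 amputated and 3 uncut fin fold libraries, grouped by their labels. The deposited table gives raw read counts per gene, and the submitters' processing notes name TopHat, Cufflinks and DESeq2 with no version. For the counter, annotation and genome build, nothing is stated (not given in the sources used here), so coordinates are those of the table. The deposited normalized signal was these counts divided by a size factor per library (largest relative deviation 5.5e-10). The table also holds the authors' log2 fold changes (uncut over amputated, turned round where printed), their Wald score (the stat column) and their p-values, of which 12918 adjusted values are NA. These authors' values were used only as an alternative.

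Counts were filtered with filterByExpr (minimum count 10, minimum total 15), scaled by TMM and tested in edgeR 4.0.16 (R 4.3.3) over 17883 genes. The depth gave 1 count a worth of 0.0436 to 0.0972 CPM. The fit was tested on simulated data, in which 40% of genes changed by 0.5 and 78% of those changed by 1 on the log2 scale were called, with 18 false calls. Only 200 genes were changed in the simulation, whereas 40.4% of all tested genes were called in the data. These rates therefore need not hold for the data. Ratios of counts within a library were compared by exact permutation.

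The genes of the rule and the other lists were chosen with earlier results of these data known. Values per library are given for the 4 genes with the smallest adjusted p in each of the 4 role groups, those called against their group, the one with the highest mean CPM in each group, partners in pairs, and the 2 nearest to no change at a mean of at least 5 CPM. Up to 3 genes with the smallest adjusted p were named from each other list, with atf4a and atf4b. All other genes named, kars, aars, hars, wars, aimp2 and chac1 among them, and the genes outside the naming rule, were chosen after their values were seen. The values of 1 gene are not reported here, though it is in the counts.

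Labels give replicate numbers but no shared batch. Same-numbered libraries deviated together from their group means (r = 0.222, 0.199 and 0.153, other pairings −0.143 to −0.0399), so a fit with the replicate block was made beside the main one. Deviations from a group mean cancel within the group for each gene. The negative values of the other pairings therefore follow from the positive ones and are not separate evidence of pairing. Other alternatives were DESeq2 size factors, library totals alone, no filter, a mean of at least 5 CPM, DESeq2 1.42.0, the authors' values, stricter thresholds, and each library left out.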

Additional observations from a re-analysis of the deposited data

How the results depend on the processing

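The count of synthetase and methyltransferase genes called higher, 36, was 31 to 43 under all alternatives other than a minimum log2 fold change of 1, which left 8. A mean of at least 5 CPM left only 39 of the 49 genes in the test, of which 32 were called higher. The calls lost there, those of mars2, sars2, trmt1l and yars2, were of genes left untested by that filter. With the replicate block it was 37, through aars, and the block changed no other call among the 49 genes. DESeq2's Wald test called 33 higher. Under library totals alone, 6821 of all tested genes were called higher and 1636 lower. At an adjusted p under 0.01, 2283 of all tested genes were lower. At a log2 fold change of at least 1, 810 of all tested genes were higher and 566 lower, as were 2 complex synthetases, 2 other cytosolic synthetases, 1 mitochondrial synthetase, 3 methyltransferases and 20 genes of the 5 other lists on the higher side. The 1 gene called lower, dars, a complex synthetase, became 0 under library totals, at the stricter p and at the fold minimum, and 0 to 1 without single libraries. Mitochondrial synthetases called higher numbered 5 at a mean of at least 5 CPM, a filter that left yars2, sars2 and mars2 untested. They numbered 5 with DESeq2, 4 at the stricter p, and 4 to 8 without single libraries. Of 155 tested genes in the 5 other lists, 15 were lower in the main fit (9.68%, where 19.6% of all tested genes were). The list of amino acid response and supply held 14 of them, and that of elongation and release factors held 1. The count was 8 under library totals, 9 at the stricter p and 2 at the fold minimum. It was 9 to 15 without single libraries, the fewest without amputated replicate 2. The log2 fold change of cars2 ranged from −0.0461 to 0.0695 without single libraries, below 0 without amputated replicate 3 (−0.03) or uncut replicate 2 (−0.0461). Of 545 values of the 42 genes chosen by the naming rule, 536 kept direction and side of the threshold. Most of these genes were chosen for a small adjusted p in these same data. The count therefore does not measure how stable the calls of the other genes are. The cause of the differences between settings was not tested, apart from the fewer genes that stricter limits leave. Among the 49 genes, SE reached 0.25 (trmt12), which limits what the calls of genes with few counts can show.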
